A study of Homo sapiens with 12 samples.

Results

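The genes described here encode the subunits of the hypoxia-inducible factors (HIF) and the enzymes that regulate them by oxygen. They were chosen by symbol as HIF1A, EPAS1, HIF3A, ARNT, ARNT2, EGLN1, EGLN2, EGLN3, HIF1AN and VHL, which are 10 of the 28278 genes in the count matrix. PolyA RNA was sequenced from cells that had been evolved under hydroxychloroquine (HCQ), an antimalarial drug that disrupts autophagy, and from control cells passaged without it. Cells were labelled OVCAR3, a high-grade serous ovarian cancer line, or CCL218, a colorectal cancer line derived from HT29. HCQ-evolved OVCAR3 and HCQ-evolved CCL218 cells received 15 pulses of HCQ of 48 h each, at 20 to 50 µM, then grew without drug for 7 days before harvest, and were labelled passage 15. Control OVCAR3 and control CCL218 cells were labelled passage 19, so treatment and labelled passage cannot be told apart. Each group came from 1 plate whose wells were kept apart at every passage. Its 3 libraries each pool 31 wells from the left (L), the middle (M) or the right (R) of that plate. The p-values thus measure the spread between pools of separately passaged wells of 1 plate. They do not measure the spread between plates or between starting cultures.

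HIF is a dimer of an oxygen-labile alpha subunit (HIF1A, EPAS1 or HIF3A) and a stable beta subunit (ARNT or ARNT2), and it binds a short DNA core in genes for glycolysis, oxygen supply and matrix processing. With oxygen present, prolyl hydroxylases (EGLN1, EGLN2 and EGLN3) mark the alpha subunit for VHL, the recognition subunit of a ubiquitin ligase, and the asparaginyl hydroxylase HIF1AN blocks its binding of coactivators. Alpha subunits are set largely at the level of protein, which RNA counts do not show, and EGLN3 and EGLN1 are themselves well known HIF target genes.

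Libraries held 31.1 to 60 M counts, and levels are given in CPM, the count of a gene relative to the scaled total of its library, set on 1 scale over all 12 libraries. Gene levels followed transcript length unequally between pools. The correlation across genes of a library's deviation with transcript length (Spearman's rho) ran from -0.45 in the left control pool of CCL218 to 0.53 in the right HCQ-evolved pool of OVCAR3. Of 8 ovarian markers, 5 averaged at least 1 CPM in control and 6 in HCQ-evolved pools, under either label. Control pools labelled OVCAR3 had MECOM at 44.3, MUC16 at 22.4, MSLN at 14.2 and PAX8 at 12 CPM, and those labelled CCL218 had them at 61.4, 8.65, 63.6 and 8.31 CPM, whereas SOX17 was at 0 counts in every library and EMX2 at 0 to 2 counts. Libraries labelled OVCAR3 also carried the colorectal markers VIL1 (241 CPM in control pools and 110.0 CPM in HCQ-evolved pools) and LGALS4 (730 and 360.0 CPM), so markers of both tissues were present under both labels, and the line names are used here as labels only. The summed level of the 8 colorectal markers was 907 to 1121 CPM in control and 225 to 648 CPM in HCQ-evolved pools labelled OVCAR3, and 1105 to 1597 and 1154 to 1212 CPM in those of CCL218, a sum that LGALS4 dominates. Within CCL218, LGALS4 averaged 1046 CPM in control and 785 CPM in HCQ-evolved pools and VIL1 187 and 185 CPM, while CDX2 was at 23.2 and 67.8, CDH17 at 3.84 and 52.5, GPA33 at 4.77 and 34.7 and CEACAM5 at 14.2 and 60.9 CPM. The summed level of the 8 ovarian markers was 87.4 to 107 and 66.8 to 96.1 CPM under the OVCAR3 label, and 131 to 165 and 156 to 189 CPM under the CCL218 label. Of 5 markers of fibroblasts, leukocytes and endothelium, COL1A2, DCN and PTPRC were at 0 to 6 counts per library. The part of these markers in the results of either line was not tested, and each line was fitted alone.

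EGLN1 and EGLN3, the hydroxylase genes on which the results turn, differ in the letters upstream of their RefSeq start sites (GRCh38.p14). Bases before each start were searched on both strands for the cores ACGTG and GCGTG, which HIF can bind, over 250 bases. For a gene with several promoter entries, only the start furthest upstream was used. Promoter sequence was found for 8 of the 10 genes, and 5 of these held at least 1 core, beside 43.2% of all 35116 promoters. The share over all promoters counts every entry of a gene, so the 2 are not on the same footing. EGLN1 is shown in full (chr1:231422288-231422537, minus strand, 81.2% G and C), with the single ACGTG in capitals, 13 bases before the start.
EGLN1: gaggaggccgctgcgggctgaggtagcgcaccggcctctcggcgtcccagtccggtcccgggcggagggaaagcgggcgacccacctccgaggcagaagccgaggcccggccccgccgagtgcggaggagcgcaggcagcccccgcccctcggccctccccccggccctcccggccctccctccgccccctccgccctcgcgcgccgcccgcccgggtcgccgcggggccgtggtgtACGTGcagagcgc
EGLN3 is shown without its last bases, which overlap an annotated exon (chr14:33951082-33951324, minus strand, 243 bases, 63.8% G and C), and it has neither core.
EGLN3: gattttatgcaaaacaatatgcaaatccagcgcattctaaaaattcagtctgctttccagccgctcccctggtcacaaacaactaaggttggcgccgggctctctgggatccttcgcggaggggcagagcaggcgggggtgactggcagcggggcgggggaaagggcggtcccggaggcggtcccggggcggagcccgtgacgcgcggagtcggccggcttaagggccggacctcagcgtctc

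The other cores are shown within 30 bases each, in capitals, since they sit before genes of the alpha subunits and of EGLN2. HIF1A has 1 core, 204 bases before its start (chr14:61695297-61695326), EPAS1 has 1 at 117 bases (chr2:46297278-46297307), and HIF3A has 3, of which the farthest, at 193 bases, is shown (chr19:46296837-46296866). EGLN2 has a palindrome that reads as ACGTG on both strands (chr19:40799130-40799159). All are on the plus strand.
HIF1A: tggctgagagcgGCGTGggctggggtgggg
EPAS1: gggcctgccggcGCGTGcccgcccacacac
HIF3A: ccgcggcgagggGCGTGgttggggggtgtg
EGLN2: gcggggcgcggtCACGTGcccaccgggcga
ACGTG stood in 18.5% and GCGTG in 32.2% of all promoters of the same length. ARNT and HIF1AN had neither core. A core is a match of letters and no binding was measured.

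In OVCAR3, HCQ-evolved pools had more EGLN3 RNA than control pools, by a ratio of 2.91, and no other gene of the HIF system passed the test. In CCL218, EGLN3 RNA was higher by a ratio of 4.55 and EGLN1 RNA by a ratio of 2.22. The alpha subunit HIF1A, the beta subunit ARNT and HIF1AN overlapped between control and HCQ-evolved pools in both lines. HIF3A, ARNT2 and EGLN2 were too low to test. In bulk RNA of pools, a change in the share of cells that express a gene cannot be told apart from a change in RNA per cell. Thus 1 of the 7 tested genes of the HIF system passed in OVCAR3 and 2 of 7 in CCL218 (edgeR quasi-likelihood test, threshold 0.05 on the p adjusted over all genes; SE below is the standard error of a log2 fold change). Over all genes, 1.86% passed in OVCAR3 and 6.46% in CCL218. The median log2 fold change of the 7 genes was 0.19 in OVCAR3 and 0.24 in CCL218, beside 0.016 and -0.017 over all genes tested.

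**Figure D1:**
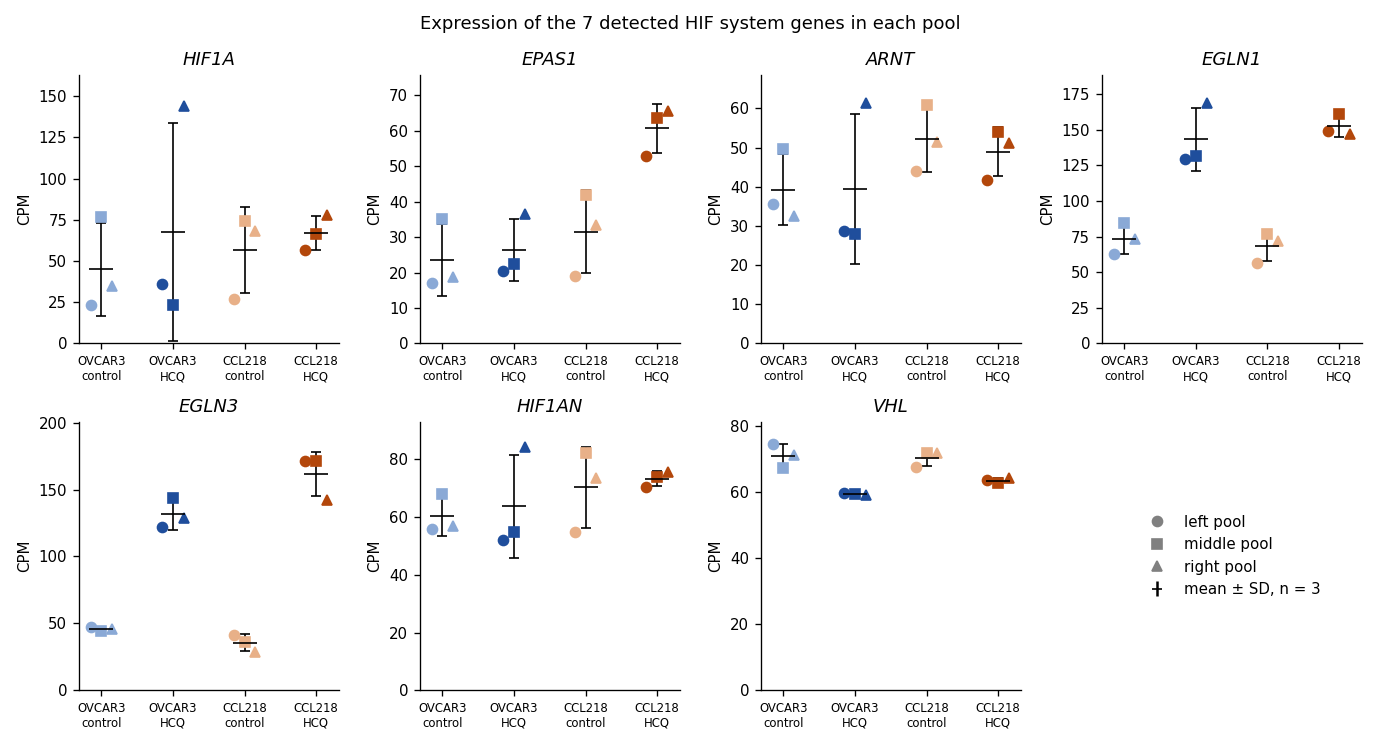
Expression of the 7 detected HIF system genes in CPM (vertical axes, linear from 0) in each of the 12 pools, grouped by cell line and treatment. Symbols show the plate position, and bars show the mean and SD of 3 pools. HCQ-evolved pools lie above control pools for EGLN3 and EGLN1 in both lines and for EPAS1 in CCL218, and below them for VHL in both lines.

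Among the alpha subunits, HIF1A (chr14:61695513-61748259, plus strand, hg38) was at 23.5, 77.0 and 34.6 CPM in the L, M and R control pools of OVCAR3. HCQ-evolved OVCAR3 pools were at 35.8, 23.3 and 144 CPM. The groups overlapped, and the right HCQ-evolved pool and the middle control pool stood above the others. The log2 fold change was 0.61 (SE 0.73, adjusted p = 0.731, edgeR), and without the right HCQ-evolved pool it was -0.61. In CCL218, control pools were at 26.8, 74.3 and 68.5 CPM and HCQ-evolved pools at 56.8, 66.6 and 77.6 CPM. The groups overlapped there as well, with a log2 fold change of 0.24 (SE 0.36, adjusted p = 0.694, edgeR), which was -0.10 without the left control pool.

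HIF1A RNA moved with the length trend of the pools. The 5 pools with rho at or below -0.32 had 23.3 to 35.8 CPM of HIF1A, and the 4 pools with rho at or above 0.42 had 74.3 to 144 CPM. EGLN3 was at 41.7 to 144 CPM in the first set and at 35.8 to 142 CPM in the second, which both hold control and HCQ-evolved pools. The HIF1A transcript itself is near the middle in length, at the percentile 52.6 of tested genes. It is among the lowest in G and C, at 36.4%, the percentile 4.20 of tested genes. Whether HIF1A followed length or GC content was not tested. With length and GC content taken out of each library, the log2 fold change of HIF1A was 0.45 in OVCAR3 and 0.14 in CCL218.

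**Figure D2:**
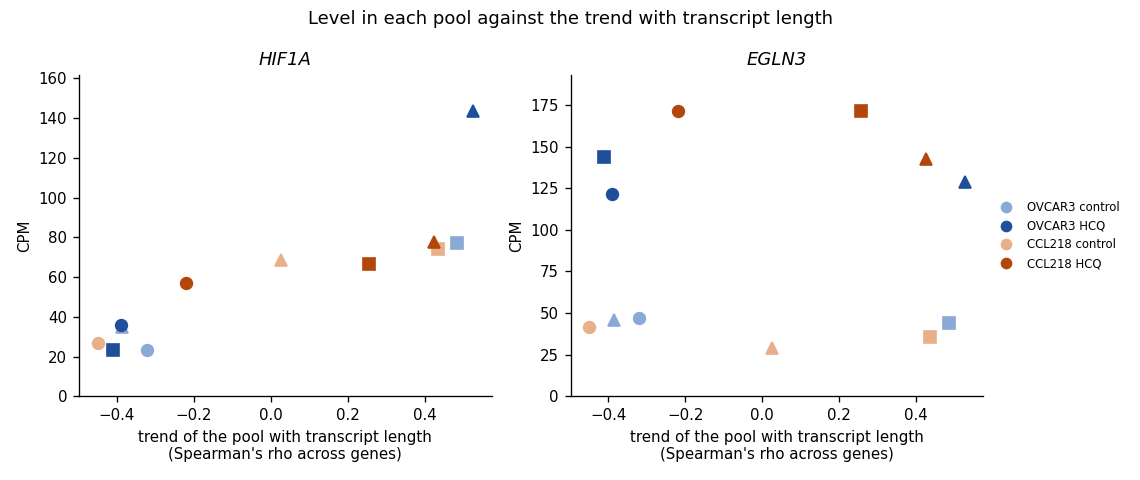
Level of HIF1A (left) and EGLN3 (right) in CPM against each pool's trend with transcript length (Spearman's rho across genes), 1 point per pool, colour for the group and shape for the plate position (circle left, square middle, triangle right). HIF1A is at 23.3 to 35.8 CPM in the pools at the left end and at 74.3 to 144 CPM in those at the right end, whereas EGLN3 separates by treatment at either end.

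HIF1A shares exon bases with antisense genes, and whether the counting used strand is not given in the sources used here. HIF1A-AS3, an antisense RNA that overlaps 5.8% of the HIF1A exon bases, had 1, 2 and 1 counts in control and 12, 21 and 35 counts in HCQ-evolved OVCAR3 pools. In CCL218 it had 9, 3 and 2 counts in control and 23, 36 and 37 counts in HCQ-evolved pools. Its HCQ-evolved pools lay above its control pools in both lines, but the gene was below the filter on low counts, so no test was made. HIF1A-AS1 had 0 to 2 counts and HIF1A-AS2 0 to 10 counts per library.

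EPAS1, which encodes the HIF-2 alpha subunit (chr2:46293667-46386697, plus strand), was at 17.0, 35.1 and 18.6 CPM in control and 20.5, 22.4 and 36.5 CPM in HCQ-evolved OVCAR3 pools. These groups overlapped, with a log2 fold change of 0.19 (SE 0.36, adjusted p = 0.851, edgeR). In CCL218, control pools were at 19, 42.0 and 33.5 CPM and HCQ-evolved pools at 52.9, 63.7 and 65.5 CPM. Every HCQ-evolved CCL218 pool was thus above every control pool. The log2 fold change was 0.94 (SE 0.28), which missed the threshold (adjusted p = 0.0948, edgeR). With plate position as a block, as positions were taken as paired in CCL218, it was 1.01 and passed (adjusted p = 0.00826, edgeR). It also passed without the left control pool, the lowest, at 0.67 (adjusted p = 0.00487, edgeR). With the block, 3 of the 7 genes passed in CCL218, where 14.2% of all genes did. Without the left control pool, 3 of 7 passed and 25.2% of all genes did. EPAS1 stayed uncalled in 9 of 15 alternatives, with adjusted p up to 0.318 with 1 pool left out (edgeR). Whether EPAS1 differed between lines in its response was tested by an interaction, which gave 0.77 on the log2 scale (SE 0.49, adjusted p = 0.805, edgeR).

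HIF3A, the alpha subunit with shorter forms that can inhibit the others (chr19:46297042-46343433, plus strand), had 0 to 11 counts per library. Its counts were 11, 0 and 3 in control and 0, 3 and 2 in HCQ-evolved OVCAR3 pools. They were 0, 2 and 0 in control and 2, 2 and 0 in HCQ-evolved CCL218 pools. Nearly all of these are at or under a floor of 3 counts, so no difference was detectable at this depth.

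ARNT, the main beta subunit (chr1:150809713-150876708, minus strand), was at 35.6, 49.5 and 32.6 CPM in control and 28.6, 28.0 and 61.4 CPM in HCQ-evolved OVCAR3 pools. Control CCL218 pools were at 44.1, 60.9 and 51.5 CPM and HCQ-evolved pools at 41.8, 54.0 and 51.1 CPM. Groups overlapped in both lines. The log2 fold change was 0.026 in OVCAR3 (SE 0.36, adjusted p = 0.984, edgeR) and -0.094 in CCL218 (SE 0.17, adjusted p = 0.749, edgeR). The OVCAR3 value was -0.47 without the right HCQ-evolved pool. ARNT2, a beta subunit known mainly from the nervous system (chr15:80404350-80597933, plus strand), had 0 to 5 counts per library, with 7 of the 12 libraries at 0.

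EGLN1 encodes PHD2, the prolyl hydroxylase that sets HIF1A stability in most cells (chr1:231363751-231422287, minus strand). It was at 62.8, 84.8 and 73.2 CPM in control and 129, 132 and 169 CPM in HCQ-evolved OVCAR3 pools. Every HCQ-evolved pool was above every control pool. The log2 fold change of 0.98 (SE 0.21) missed the threshold over all genes (adjusted p = 0.0640, edgeR). It passed in 6 of 15 alternatives, among them DESeq2 (adjusted p = 0.000668) and the fit with length and GC content taken out (adjusted p = 0.00953, edgeR). Without the right HCQ-evolved pool it also passed, at 0.83 (adjusted p = 0.0499, edgeR). Those fits called 9.06%, 6.99% and 4.60% of all genes in turn, beside 1.86% as reported. EGLN1 stayed uncalled in the other 9 alternatives, with adjusted p up to 0.266 with 1 pool left out (edgeR).

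In CCL218, EGLN1 was at 56.5, 76.9 and 72.2 CPM in control and 149, 161 and 147 CPM in HCQ-evolved pools. The groups did not overlap, and EGLN1 rose with a log2 fold change of 1.15 (SE 0.15, adjusted p = 0.00724, edgeR). Leaving out the right control pool (adjusted p = 0.0503), the middle HCQ-evolved pool (0.0658) or the right HCQ-evolved pool (0.0522) ended the call, at log2 fold changes of 1.18, 1.12 and 1.17. EGLN1 shares 55.8% of its exon bases with a gene of the same strand that is not in the count matrix, so its counts cannot be divided between them. The change in CCL218 minus that in OVCAR3 was 0.19 on the log2 scale (SE 0.24, adjusted p = 0.999, edgeR).

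EGLN2, which encodes PHD1 (chr19:40798996-40808434, plus strand), was nearly absent from the counts. Control pools had 2, 7 and 2 counts in OVCAR3 and 4, 1 and 12 in CCL218. HCQ-evolved pools had 12, 0 and 8 counts in OVCAR3 and 7, 8 and 1 in CCL218. EGLN2 shares 30.6% of its exon bases with the read-through gene RAB4B-EGLN2 on the same strand, and RAB4B, RAB4B-EGLN2 and MIA-RAB4B were all at 0 counts in every library. How reads in overlapping genes were counted is not given in the sources used here, so the level of EGLN2 is uncertain.

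EGLN3 encodes PHD3, the hydroxylase whose RNA responds most widely to hypoxia (chr14:33924227-34462774, minus strand). It was at 47.3, 44.1 and 45.9 CPM in control and 122, 144 and 129 CPM in HCQ-evolved OVCAR3 pools. The groups were far apart relative to their spread, at 45.8 ± 1.60 and 131 ± 11.4 CPM (SD, n = 3). EGLN3 rose with a log2 fold change of 1.54 (SE 0.17, adjusted p = 0.0101, edgeR), rank 20 by p among 12204 genes. With 1 pool left out the log2 fold change stayed at 1.48 to 1.60. The call was lost without the left (adjusted p = 0.101), middle (0.0557) or right control pool (0.100) or the middle HCQ-evolved pool (0.0557), and with plate position as a block (0.0519).

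In CCL218, EGLN3 was at 41.7, 35.8 and 28.8 CPM in control and 172, 171 and 142 CPM in HCQ-evolved pools. The means were 35.4 ± 6.46 and 162 ± 16.7 CPM (SD, n = 3), and no pool overlapped. EGLN3 rose with a log2 fold change of 2.19 (SE 0.17, adjusted p = 0.00164, edgeR), rank 27 by p among 12241 genes, and passed under all 15 alternatives tried for it, at 2.05 to 2.31. The change in CCL218 exceeded that in OVCAR3 by 0.67 on the log2 scale (SE 0.22, unadjusted p = 0.00999), which missed the threshold over all genes (adjusted p = 0.249, edgeR). EGLN3 was also the only gene of the 7 whose control pools did not overlap between lines, as 17.8% of all genes did not. Its level was lower in control CCL218 by 0.37 on the log2 scale, which did not pass (SE 0.15, adjusted p = 0.293, edgeR).

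**Figure D3:**
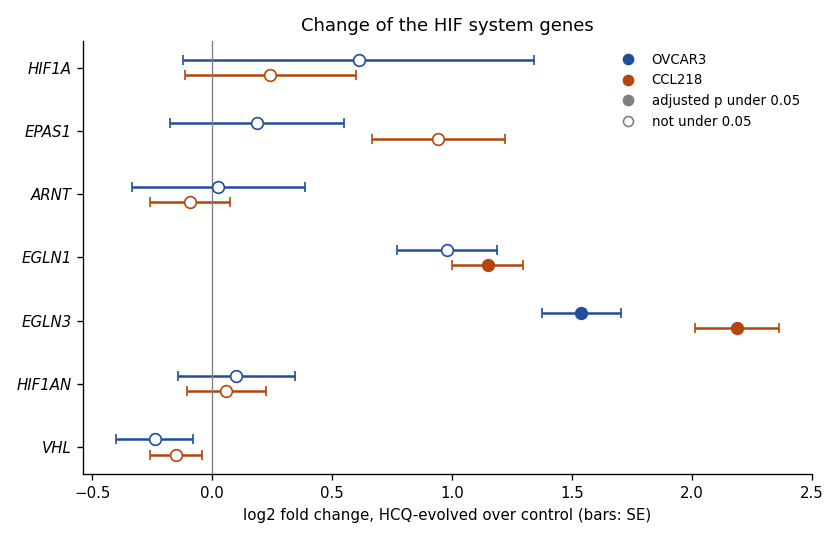
Log2 fold change of HCQ-evolved over control pools (horizontal axis) for the 7 tested HIF system genes, blue for OVCAR3 and orange for CCL218, with bars of 1 standard error and filled points for adjusted p under 0.05. The filled points are EGLN3 in OVCAR3 (1.54) and EGLN1 (1.15) and EGLN3 (2.19) in CCL218.

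HIF1AN, the asparaginyl hydroxylase also called FIH (chr10:100529072-100559998, plus strand), was at 55.9, 68.0 and 56.9 CPM in control and 52.2, 54.8 and 84.2 CPM in HCQ-evolved OVCAR3 pools. Control CCL218 pools were at 54.9, 82.3 and 73.7 CPM and HCQ-evolved pools at 70.4, 73.9 and 75.8 CPM. Groups overlapped in both lines. Log2 fold changes were 0.10 in OVCAR3 (SE 0.24, adjusted p = 0.882, edgeR) and 0.059 in CCL218 (SE 0.17, adjusted p = 0.843, edgeR).

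VHL (chr3:10141778-10153667, plus strand) was at 74.5, 67.4 and 71.3 CPM in control and 59.8, 59.4 and 59.2 CPM in HCQ-evolved OVCAR3 pools. Control CCL218 pools were at 67.5, 71.8 and 71.9 CPM and HCQ-evolved pools at 63.8, 62.7 and 64.2 CPM. Every HCQ-evolved pool was below every control pool of its line, as for 12.7% of all genes in OVCAR3 and 17.3% in CCL218. The differences were small and did not pass, at -0.24 in OVCAR3 (SE 0.16, adjusted p = 0.513, edgeR) and -0.15 in CCL218 (SE 0.11, adjusted p = 0.414, edgeR). An unnamed antisense RNA overlaps 23.5% of the exon bases of VHL.

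Pools did not overlap for 3 of the 7 genes in OVCAR3 (EGLN1, EGLN3 and VHL) and for 4 of 7 in CCL218 (these and EPAS1). Of all genes, 25.7% in OVCAR3 and 36% in CCL218 did not overlap. In the interaction, 0 of 7 genes passed with edgeR, DESeq2 or limma voom and 1 (EGLN3) had an unadjusted p under 0.05, beside 0.872% of all genes that passed and 9.11% that had such a p. Between control lines 0 of 7 passed with each of these tools, 1 (EGLN3) had an unadjusted p under 0.05, and 3.42% of all genes passed, 14.5% having such a p.

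**Figure D4:**
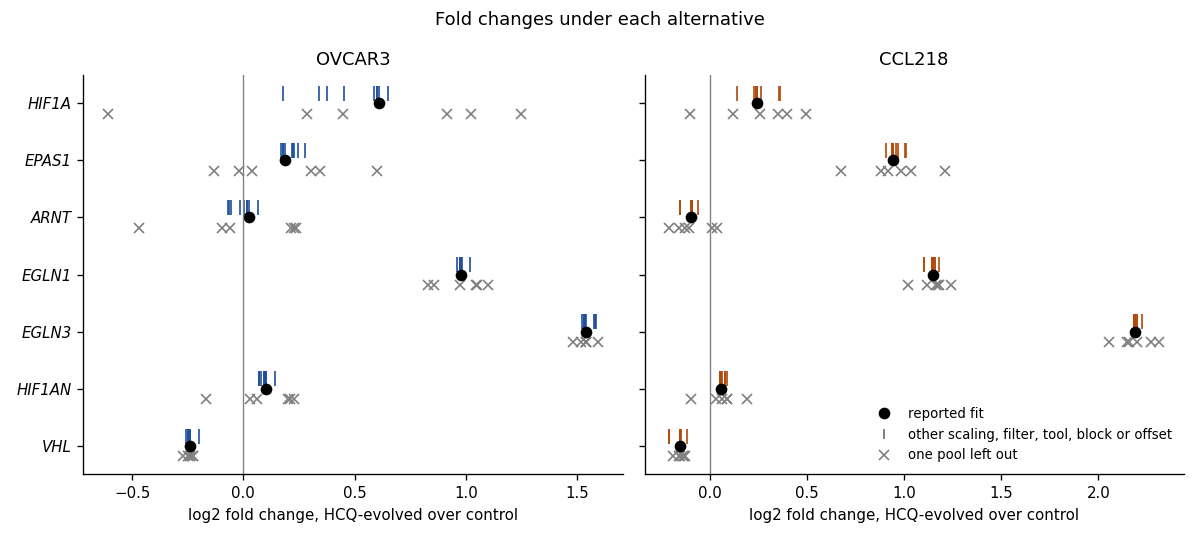
Log2 fold change (horizontal axis) of each tested gene in OVCAR3 (left) and CCL218 (right) as reported (black point), under other scaling, filters, tools, a block or an offset (vertical ticks), and with 1 pool left out (crosses). EGLN3 stays at 1.48 to 1.60 in OVCAR3 and at 2.05 to 2.31 in CCL218, whereas HIF1A reaches both sides of 0 in each line.

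Levels were compared between genes per kilobase of union exons (RPKM). In control OVCAR3 pools, VHL (14.2 ± 0.705) and EGLN1 (13.7 ± 2.05) were highest, followed by HIF1A (8.74 ± 5.47), EGLN3 (6.22 ± 0.217), ARNT (6.09 ± 1.40), HIF1AN (4.34 ± 0.481) and EPAS1 (3.23 ± 1.38) (RPKM, SD, n = 3). Each neighbour in this order lay within the summed SDs of the next. In control CCL218 pools the order was VHL (14.1 ± 0.499), EGLN1 (12.7 ± 1.98), HIF1A (11.0 ± 5.04), ARNT (8.09 ± 1.30), HIF1AN (5.06 ± 1.01), EGLN3 (4.81 ± 0.877) and EPAS1 (4.32 ± 1.60), in RPKM. There, only ARNT and HIF1AN were neighbours apart by more than their summed SDs.

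In HCQ-evolved OVCAR3 pools, EGLN1 (26.7 ± 4.12) and EGLN3 (17.9 ± 1.54) came first, before HIF1A (13.1 ± 12.9), VHL (11.9 ± 0.0625), ARNT (6.10 ± 2.97), HIF1AN (4.59 ± 1.28) and EPAS1 (3.63 ± 1.19), in RPKM. EGLN1 and EGLN3 were apart by more than their summed SDs, and so were VHL and ARNT. In HCQ-evolved CCL218 pools, EGLN1 was at 28.3 ± 1.40, EGLN3 at 22.0 ± 2.27, HIF1A at 13.0 ± 2.02, VHL at 12.7 ± 0.160, EPAS1 at 8.33 ± 0.935, ARNT at 7.60 ± 0.986 and HIF1AN at 5.28 ± 0.196 RPKM. HIF1A and VHL, and EPAS1 and ARNT, were within their summed SDs, and the other neighbours were not. The place of EGLN3 depends on the gene model, as its union of exons is far longer than its longest transcript. Per kilobase of the longest transcript, EGLN3 (16.1 RPKM) was above VHL (15.7) and below EGLN1 (17.0) in control OVCAR3 pools, and in control CCL218 pools EGLN3 (12.4 RPKM) was above ARNT (11.1). On the same scale EGLN3 was above EGLN1 in HCQ-evolved pools of both lines, at 46.1 and 33.1 RPKM in OVCAR3 and at 56.8 and 35.1 RPKM in CCL218.

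Over the 12 libraries, EGLN1 and EGLN3 had a Pearson correlation of log2 CPM of 0.93, which became -0.38 once group means were removed, so that they shared the difference between groups and not the order of pools within them. HIF1A and ARNT had 0.83 and, within groups, 0.92, and HIF1A and HIF1AN had 0.92 and 0.94. These pools also share the length trend. Of all tested genes, P4HA2 (0.98) and BNIP3L (0.98) were most like EGLN3, and SLC2A1 (0.99) and PDK1 (0.98) most like EGLN1, over the same 12 libraries. P4HA2 encodes a collagen prolyl hydroxylase, BNIP3L a mitophagy receptor, SLC2A1 the glucose transporter GLUT1 and PDK1 a kinase that restrains pyruvate dehydrogenase. All 4 stand in the list of HIF target genes below. The next in order, C8orf58 (0.98) for EGLN3 and TMEM8B (0.98) for EGLN1, do not. These correlations include the difference between groups, and values within groups were not computed for these genes.

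Genes that HIF regulates were taken as a list of 42, which excludes EGLN1 and EGLN3. The list came from general knowledge of the pathway but was chosen with earlier results of these data known. Its counts beside all genes are therefore a description and not a test of the list. In OVCAR3, 36 were tested, and 7 passed as higher and 0 as lower, beside 0.647% and 1.21% of all genes. In CCL218, 38 were tested, and 27 passed as higher and 1 as lower, beside 3.82% and 2.64% of all genes. The median log2 fold change of the list was 0.83 in OVCAR3 and 1.12 in CCL218, with 34 of 36 and 36 of 38 above 0. Over all genes 51.6% and 48.3% were above 0. HCQ-evolved pools lay wholly above control pools for 26 target genes in OVCAR3 and for 33 in CCL218, as 13% and 18.6% of all genes did.

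The 7 target genes that rose in OVCAR3 also rose in CCL218. PFKFB4, a regulator of glycolytic flux, went from 24.0 ± 3.08 to 81.8 ± 2.46 CPM in OVCAR3 (log2 fold change 1.78, SE 0.19, adjusted p = 0.0101, edgeR). ENO2, a glycolytic enolase, went from 42.9 ± 4.44 to 148 ± 21.9 CPM (log2 fold change 1.81, adjusted p = 0.0101, edgeR). DDIT4, an inhibitor of mTORC1 signalling, went from 159 ± 1.70 to 464 ± 59.8 CPM (log2 fold change 1.56, adjusted p = 0.0101, edgeR). The glycolytic aldolase ALDOC (1.48), the collagen prolyl hydroxylases P4HA1 (1.65) and P4HA2 (1.35) and BNIP3L (0.92) also rose on the log2 scale (adjusted p 0.0186 to 0.0406, edgeR). The OVCAR3 count moved with the pools and the method. It was 0, 1 and 0 without the left, middle and right control pool, 3, 2 and 13 without the left, middle and right HCQ-evolved pool, 4 with plate position as a block, 21 with DESeq2, where 1 more target gene was lower, and 21 with length and GC content taken out. In those fits 0.0250%, 0.158%, 0.0332%, 0.404%, 0.206%, 4.60%, 0.664%, 9.06% and 6.99% of all genes passed, while the median log2 fold change of the list stayed at 0.81 to 0.93.

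In CCL218, P4HA2 went from 57.6 ± 2.86 to 293 ± 30.7 CPM, the smallest p of the list (log2 fold change 2.34, SE 0.13, adjusted p = 0.000453, edgeR). BHLHE40, a transcriptional repressor of the clock and of differentiation, went from 19.5 ± 4.90 to 124 ± 11.4 CPM (log2 fold change 2.67, adjusted p = 0.00164, edgeR). VEGFA, the main angiogenic ligand, went from 163 ± 16.0 to 475 ± 42.3 CPM (log2 fold change 1.54, adjusted p = 0.00199, edgeR). ENO2 (2.23), PFKFB4 (2.21), ALDOC (2.16), PLOD2 (1.57), a collagen lysyl hydroxylase, and BNIP3L (1.27) also rose on the log2 scale, with adjusted p of 0.00102 to 0.00275 (edgeR). CXCR4, a chemokine receptor, was the target gene that fell, from 2.78 ± 0.620 to 0.340 ± 0.274 CPM (log2 fold change -3.02, adjusted p = 0.0196, edgeR), and it is named because of its direction after its values were seen. CXCR4 passed the filter on low counts through its control pools alone, so it was not tested when any of these was left out, and no target gene was called lower without the left or the right HCQ-evolved pool either. The 28 calls in CCL218 became 14 without the right control pool, 14 without the left, 13 without the middle and 13 without the right HCQ-evolved pool, where 1.20%, 1.21%, 0.841% and 1.18% of all genes passed.

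**Figure D5:**
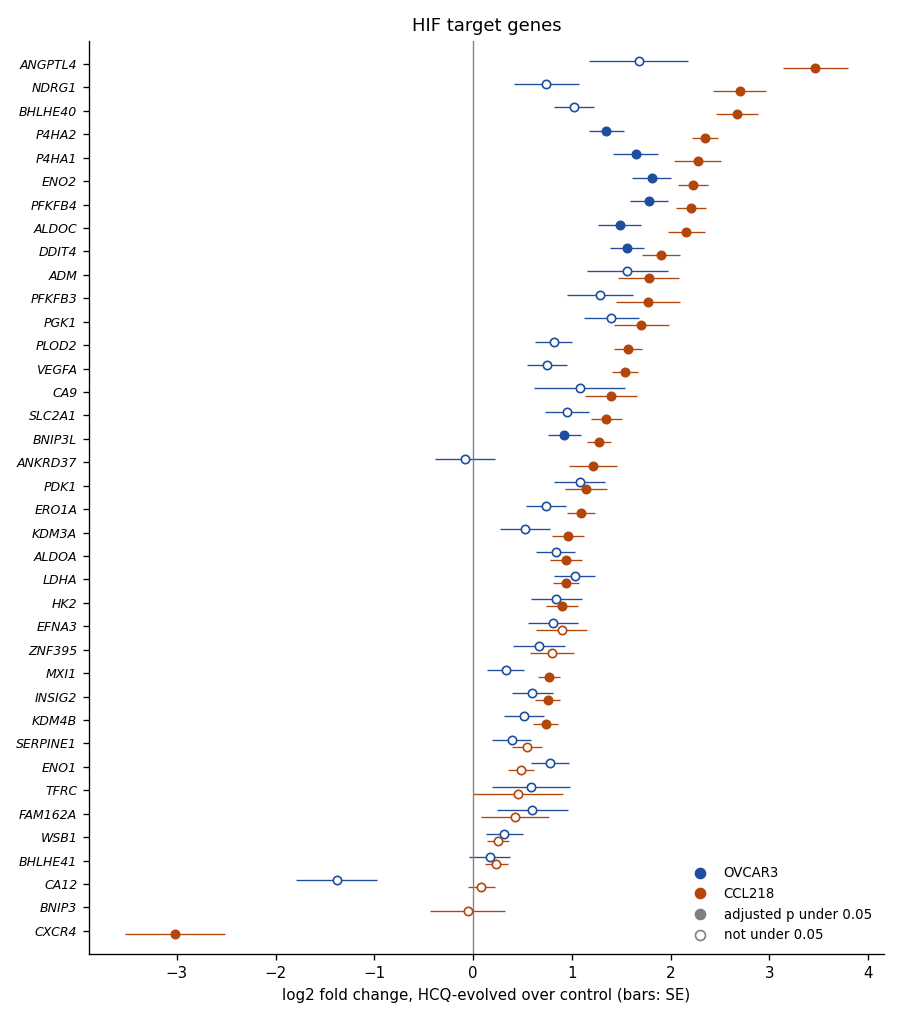
Log2 fold change of HCQ-evolved over control pools (horizontal axis, bars of 1 standard error) for the tested HIF target genes, blue for OVCAR3 and orange for CCL218, with filled points for adjusted p under 0.05. Points right of 0 number 34 of 36 in OVCAR3 and 36 of 38 in CCL218, and the filled point to the left is CXCR4 in CCL218 (-3.02), which passed the filter on low counts only through its control pools.

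Genes that act with or beside HIF passed in neither line. Of 5 partners of VHL in its ubiquitin ligase, 0 passed (edgeR, also 0 at an unadjusted p under 0.05), with median log2 fold changes of 0.20 in OVCAR3 and -0.15 in CCL218. The smallest p belonged to the scaffold CUL2 in OVCAR3 (0.30, adjusted p = 0.478, edgeR) and to the elongin ELOB in CCL218 (-0.56, adjusted p = 0.330, edgeR). Of 14 cofactors and modulators of HIF, 0 passed with edgeR, and 4 in OVCAR3 and 1 in CCL218 had an unadjusted p under 0.05, as did 16.2% and 25.2% of all genes. Their medians were 0.055 and 0.063. USP20, a deubiquitinase of the HIF pathway, was at -0.49 in OVCAR3 (adjusted p = 0.237, edgeR). CITED2, which competes with HIF for the coactivators EP300 and CREBBP, was at 0.87 in CCL218 (adjusted p = 0.0646, edgeR). It passed in 6 of 15 alternatives. Plate position as a block was among them (adjusted p = 0.0219, edgeR), where 14.2% of all genes passed. With 1 pool left out, the adjusted p of CITED2 ran from 0.00613 to 0.269 (edgeR).

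Other genes of the bHLH-PAS family, to which the HIF subunits belong, passed in neither line for the 8 of 11 tested, and 1 in each line, AHRR, had an unadjusted p under 0.05. Their medians were -0.046 in OVCAR3 and -0.19 in CCL218. AHRR, a repressor of the aryl hydrocarbon receptor that also pairs with ARNT, had the smallest p in both lines. It was at -1.15 in OVCAR3 (SE 0.33, adjusted p = 0.129, edgeR) and at -1.24 in CCL218 (SE 0.29, adjusted p = 0.0518, edgeR). In OVCAR3 AHRR passed in 2 of 15 alternatives. In CCL218 AHRR passed in 9 of 15 alternatives. Plate position as a block was among them (adjusted p = 0.00983, edgeR), where 14.2% of all genes passed. With 1 pool left out, the adjusted p of AHRR in CCL218 ran from 0.0131 to 0.241 (edgeR).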

How the data were processed

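The authors deposited read counts per gene, made with STAR on hg38, RmDup and featureCounts, whose versions and strand settings are not given in the sources used here. Of entries of 1 to 4 counts, 78.9% were even. All 12 libraries were grouped by the labels and 0 columns were left out. CPM and fold changes were scaled by TMM. Each line was fitted alone in edgeR 4.0.16 under R 4.3.3 (quasi-likelihood F test, robust, legacy mode), for genes that reached 1 CPM in 3 or more libraries, with Benjamini-Hochberg adjustment over all genes and a threshold of 0.05. The interaction and the comparison of controls used all 12 libraries. DESeq2 1.42.0 and voom of limma 3.58.1 were alternatives, and the pipeline was tested on simulated data. The floor of 3 counts covers counting error only, whereas SE and SD include the spread between pools.

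The genes and lists were chosen with earlier results of these data known. Named were all 10 members, up to 8 genes of a list that passed with the smallest p per line (otherwise the one with the smallest p), and the 2 genes most correlated with a called member. Cofactors, ligase partners, family members and targets came from general knowledge of the pathway.

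GENCODE 44 on hg38 gave coordinates, transcript length and GC content, and matched 25763 symbols (91.1%). After group means were removed, pools of one plate position correlated across genes by 0.51 (L), 0.23 (M) and 0.19 (R) in CCL218. In OVCAR3 these values were 0.40, -0.66 and -0.48. Positions were taken as paired in CCL218 only, where all were positive. The middle control pool of CCL218 correlated more with the right HCQ-evolved pool (0.43) than with the middle one. Calls made only with the block thus rest on weak pairing.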

Additional observations from a re-analysis of the deposited data

Results flagged for a closer look

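Among the HIF target genes, 2 changed to a different extent in the 2 cell lines by the interaction test in one fit of all 12 libraries. BHLHE40 rose more in CCL218 than in OVCAR3, by 1.66 on the log2 scale (adjusted p = 0.0197, edgeR), and kept its call in 17 of 20 alternatives, with losses under the replicate block (adjusted p = 0.0598) and without the left (0.0730) or the middle (0.0800) HCQ-evolved pool of CCL218. P4HA2 rose more in CCL218 by 1.01 on the log2 scale (adjusted p = 0.0435, edgeR), but kept its call in only 5 of 20 alternatives. Over all 20 the value was 0.91 to 1.09. The adjusted p reached 0.153 with 1 pool left out (edgeR) and 0.228 among the other alternatives (edgeR, DESeq2 and voom fits). Cell line, plate and the marker levels given for libraries labelled OVCAR3 cannot be told apart in either difference.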

How the results depend on the processing

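With 3 pools of 1 plate per group, depth was not the limit for the 7 tested genes, but the low counts of HIF3A, ARNT2 and EGLN2 allow no statement. Over 51 gene results and 845 alternatives, 718 kept direction and side of the threshold, 59 lost the call, 30 gained it and 38 changed sign. Causes of these shifts were not tested. In OVCAR3 the HIF system genes called (1 as reported) were 2 with no filter on low counts, DESeq2, the length and GC offset, the block with the offset and all 12 libraries in one fit, 0 with the replicate block, and 0 to 2 with 1 pool left out. Of all genes in OVCAR3, the fits with 2 called 2.56%, 9.06%, 6.99%, 2.91% and 9.24% in turn. The replicate block called 0.664% of all genes, and the fits with 1 pool left out 0.0250% to 4.60%, beside 1.86% as reported. HIF target genes called there (7) were 14 with no filter (2.56% of all genes), 22 with DESeq2 (21 higher and 1 lower), 21 with the offset, 4 with the replicate block, 12 with the block and offset (2.91%), 24 in the fit of all 12 libraries (22 higher and 2 lower, 9.24%), and 0 to 13 with 1 pool left out. In CCL218, with 1 pool left out, HIF system genes called (2) were 1 to 3 and target genes called (28) were 13 to 33. Those fits called 0.841% to 25.2% of all genes. The highest counts, 3 and 33, came from the fit that called 25.2%. HIF system genes called in the interaction and between control lines were 0 under every alternative.

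Signs changed mostly for values close to 0, but HIF1A in OVCAR3 (0.61 as reported) and its interaction (-0.34) also turned when 1 pool was left out. ARNT in OVCAR3 was -0.054 with voom, -0.016 with the offset, -0.065 with the block and -0.070 with block and offset. With 1 pool left out, log2 fold changes in OVCAR3 ran from -0.61 to 1.25 for HIF1A, -0.13 to 0.60 for EPAS1, -0.47 to 0.24 for ARNT and -0.17 to 0.23 for HIF1AN. In CCL218 they ran from -0.10 to 0.50 for HIF1A, -0.21 to 0.038 for ARNT and -0.098 to 0.19 for HIF1AN. The interaction ran from -0.97 to 0.85 for HIF1A, -0.29 to 0.38 for ARNT and -0.17 to 0.23 for HIF1AN. It was 0.044 with voom, 0.011 with the block and 0.058 with block and offset for HIF1A, and 0.025 with voom and 0.030 with the block for HIF1AN. Between control lines, the difference ran from -0.056 to 0.021 for VHL and from -0.21 to 0.018 for EGLN1, was 0.0053 with no filter for VHL, and was -0.12 with the offset, with or without the block, for HIF1AN. In OVCAR3, where positions were not taken as paired, the block moved the calls over all genes from 227 to 81.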
